A study of Mus musculus with 2 samples.

Results

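Break, crosslink and mismatch repair genes were compared between 2 RNA-seq libraries of mouse embryonic stem cells. The 40 genes were chosen by symbol, from a list that covers the Fanconi anaemia pathway, homologous recombination, damage signalling, end joining and mismatch repair. All 40 had a row among the 24061 rows of the count table. Both libraries came from C57BL/6 cells kept on mouse embryonic fibroblast feeders with LIF, the cytokine that maintains these cells, and were made from poly(A)-selected RNA with a stranded kit. The library labelled control was from passages 17 to 23. The library labelled Pc4-OE was from passages 24 to 37, and its cells carried a lentivirus with the YFP variant Venus to overexpress Pc4, a coactivator of transcription that binds single-stranded DNA and is the product of Sub1. The design names 3 picked lines with this virus, and it is not stated from which of them the RNA came. With 1 library per group there is no spread between cultures. No p-value is given, and passage and group cannot be told apart.

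DNA breaks are repaired mainly by homologous recombination, which copies the sister chromatid, or by end joining, which seals the ends directly. The Fanconi pathway recognises crosslinks between the strands and hands the resulting break to recombination, and mismatch repair corrects replication errors. Embryonic stem cells divide quickly, with a short G1 phase, and rely strongly on recombination. Many recombination genes are transcribed with the replication genes in S phase under E2F control.

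The libraries held 10571463 (control) and 10194783 (Pc4-OE) counts. Values are CPM, the counts of a gene per 1e6 counts of its library, on TMM-scaled library sizes, and the ratio is that of Pc4-OE over control with its 95% counting interval, which covers counting error only. Sub1 itself had 5522 counts in control and 2432 in Pc4-OE (2.26-fold lower). Since that goes against the label, control and Pc4-OE below stand for what each library is labelled, not for a measured gain of Pc4. Whether the 2 columns were exchanged could not be settled from the files, and if they were, every lower below would read higher and every higher lower. The 10 stem cell markers summed to 6001 CPM in control and 4662 CPM in Pc4-OE, with 7 below a ratio of 1. They did not move together. Of the 10, 6 had an interval below 1, among them Pou5f1 (log2 ratio -0.93) and Tdgf1 (-0.69), which weigh most in the sum. Nanog (0.24) and Dppa5a (0.07) had intervals above 1, and those of Sox2 (-0.02) and Esrrb (0.03) spanned it. The 22 fibroblast markers, listed with the feeders in mind, summed to 4928 and 12873 CPM and all were higher in Pc4-OE. Nothing in the labels assigns this RNA to the feeders rather than to other cells. The 16 macrophage markers summed to 232 and 641 CPM with 16 higher. Laptm5 made up 110 CPM of the control sum and differed least (log2 ratio 0.26), while the median log2 ratio of the 16 was 2.20. No marker was at 0 in either library. Their part in the differences below was not tested, and in such bulk RNA fewer cells of a type and less RNA per cell cannot be told apart.

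Most repair genes were modestly lower in Pc4-OE. Of the 40, all of which had at least 20 counts over both libraries, 35 had a ratio below 1 (87.5%, against 50.7% of the 14213 measured genes). With library totals in place of TMM that number was 33, since Bard1 and Rad51c moved just above 1. The median log2 ratio of the 40 was -0.31, against -0.01 for all measured genes, and their summed level went from 4825 to 3785 CPM. The counting interval lay wholly below 1 for 28 genes (70.0%, against 33.1% of measured genes) and wholly above 1 for 2 (5%, against 31.2%), and it spanned 1 for 10. Every member had at least 100 counts. Among the 11637 genes with that many, 53.4% had a ratio below 1, 38.0% an interval below 1 and 32.2% an interval above 1.

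No repair gene differed by 2-fold. By that rule, a ratio of at least 2 with an interval that excludes 1, 4.02% of measured genes were lower and 11.8% higher. At 1.5-fold, 7 of the 40 were lower (17.5%), which is near the share of all measured genes (13.2%, or 13.7% of those with at least 100 counts). The same rule called 0 of the 40 higher, against 18.8% of measured genes and 17.1% of those with at least 100 counts. The 7 were Brca2, Exo1, Brip1, Xrcc5, Xrcc6, Chek1 and Rad54l. Rad54l, with a log2 ratio of -0.638, was the nearest inside this threshold, and Msh6 (-0.583), Fancl (-0.580) and Nbn (-0.574) were the nearest outside it.

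**Figure D1:**
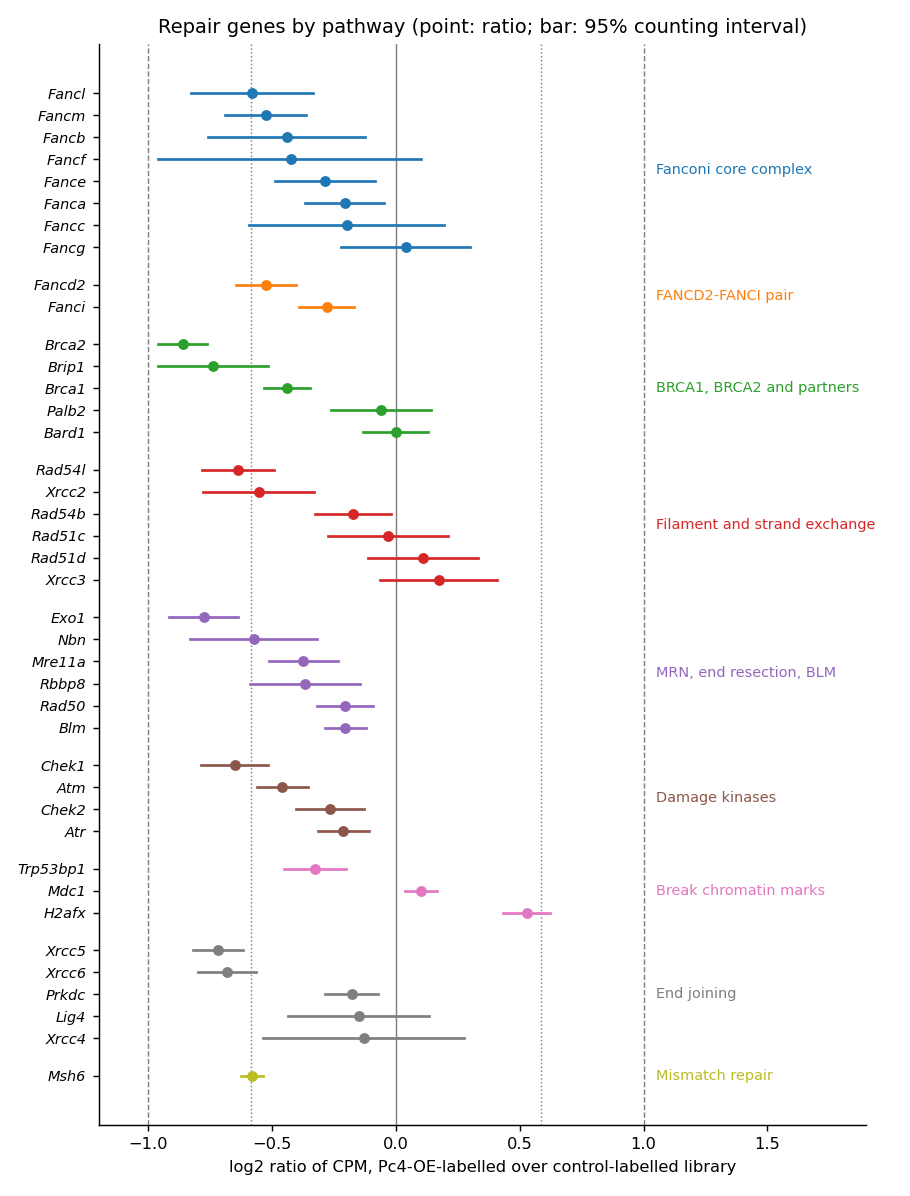
Log2 ratio (x axis) of each of the 40 repair genes, ordered by pathway, with 95% counting intervals as bars. Dotted lines mark 1.5-fold and dashed lines 2-fold. 35 points lie below 0 and none reaches a dashed line.

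Promoters of members from both ends of the range of ratios, ordered by their interval bounds, are printed to show which cell-cycle motifs they hold. They are RefSeq windows (GRCm38.p6) from 250 bases before to 50 bases after a gene start, 5′ to 3′, found for 30 of the 40 members. Among those with no entry were Exo1 at the low end, and H2afx, the highest of the 40, and Rad51d at the high end. Capitals mark 3 motifs on either strand: the E2F site (TTTCCCGC, TTTCGCGC, TTTGCCGC or TTTGGCGC), the cell-cycle homology region CHR (TTTGAA) and the CCAAT box bound by NF-Y (CCAAT).

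The 4 members with the lowest upper bounds among those with an entry were as follows.
Brca2, chr5:150522371-150522670, plus strand: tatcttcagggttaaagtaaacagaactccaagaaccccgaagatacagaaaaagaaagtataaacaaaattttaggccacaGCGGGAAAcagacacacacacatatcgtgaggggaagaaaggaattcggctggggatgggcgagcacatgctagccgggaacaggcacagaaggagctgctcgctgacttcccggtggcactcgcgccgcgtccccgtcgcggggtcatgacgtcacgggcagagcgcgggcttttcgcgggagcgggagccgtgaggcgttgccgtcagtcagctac
Xrcc5, chr1:72307171-72307470, plus strand: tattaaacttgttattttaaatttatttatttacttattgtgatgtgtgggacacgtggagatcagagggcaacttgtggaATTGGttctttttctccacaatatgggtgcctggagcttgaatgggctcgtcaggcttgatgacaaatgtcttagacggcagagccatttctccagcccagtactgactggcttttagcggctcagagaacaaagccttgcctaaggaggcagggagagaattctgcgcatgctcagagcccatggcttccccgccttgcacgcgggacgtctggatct
Xrcc6, chr15:82016119-82016418, plus strand: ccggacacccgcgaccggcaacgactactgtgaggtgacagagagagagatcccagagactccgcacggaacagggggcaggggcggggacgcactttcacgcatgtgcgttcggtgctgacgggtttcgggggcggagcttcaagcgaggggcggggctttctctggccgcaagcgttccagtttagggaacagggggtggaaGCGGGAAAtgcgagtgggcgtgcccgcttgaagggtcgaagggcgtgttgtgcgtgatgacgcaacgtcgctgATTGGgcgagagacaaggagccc
Msh6, chr17:87974800-87975099, plus strand: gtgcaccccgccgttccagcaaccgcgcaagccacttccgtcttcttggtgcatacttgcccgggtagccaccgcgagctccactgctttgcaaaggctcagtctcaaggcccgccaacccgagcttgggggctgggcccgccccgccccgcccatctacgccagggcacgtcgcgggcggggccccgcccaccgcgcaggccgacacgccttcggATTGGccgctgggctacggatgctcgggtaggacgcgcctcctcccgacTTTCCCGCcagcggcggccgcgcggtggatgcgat

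The 3 with the highest lower bounds among those with an entry were as follows, the last of them, Bard1, at a ratio of almost 1.
Mdc1, chr17:35841248-35841547, plus strand: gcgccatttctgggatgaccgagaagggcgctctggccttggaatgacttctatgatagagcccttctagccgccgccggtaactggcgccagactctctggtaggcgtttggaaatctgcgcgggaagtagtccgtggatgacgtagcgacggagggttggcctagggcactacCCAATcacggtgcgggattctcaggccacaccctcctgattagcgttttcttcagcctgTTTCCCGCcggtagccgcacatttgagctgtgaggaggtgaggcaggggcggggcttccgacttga
Xrcc3, chr12:111813830-111814129, minus strand: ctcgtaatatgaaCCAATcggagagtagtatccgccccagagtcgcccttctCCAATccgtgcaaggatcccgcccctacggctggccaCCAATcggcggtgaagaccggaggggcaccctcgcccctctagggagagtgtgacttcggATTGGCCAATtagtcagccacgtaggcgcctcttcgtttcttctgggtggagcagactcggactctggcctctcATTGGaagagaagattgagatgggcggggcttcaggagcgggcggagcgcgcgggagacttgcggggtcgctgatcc
Bard1, chr1:71102923-71103222, minus strand: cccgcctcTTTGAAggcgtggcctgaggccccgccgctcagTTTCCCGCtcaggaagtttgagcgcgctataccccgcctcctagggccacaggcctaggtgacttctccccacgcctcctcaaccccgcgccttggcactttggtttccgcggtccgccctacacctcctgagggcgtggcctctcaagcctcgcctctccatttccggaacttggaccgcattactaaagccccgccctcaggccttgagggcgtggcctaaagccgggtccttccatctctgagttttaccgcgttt

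An E2F letter match was present at both ends of this order. It stood in Brca2 (168 bases before the start), Xrcc6 (46 before) and Msh6 (15 after), and equally in Mdc1 (16 before) and Bard1 (209 before), while Xrcc5 and Xrcc3 held none. Xrcc3 held 6 CCAAT boxes, and Bard1 the single CHR match among the 30. Of the 30 promoters, 8 (26.7%) held an E2F match, against 2.32% of all 27025 promoters and 4.09% of those of measured genes. A CCAAT box stood in 19 of 30 (63.3%, against 37.9% and 38.8%) and a CHR match in 1 (3.33%, against 18.1% and 11.8%). The median log2 ratio was -0.15 for the 8 members with an E2F match and -0.35 for the other 22. For CCAAT the medians were -0.43 with and -0.21 without. Neither split was tested. A letter match is not a bound site.

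Homologous recombination genes held both the lowest members and some near a ratio of 1. Brca2, a mediator of recombination at resected ends, was the lowest of the 40, at 231 CPM (2401 counts) in control and 127 CPM (1313 counts) in Pc4-OE. That is 1.82-fold lower (log2 ratio -0.86, interval -0.96 to -0.76). Its partner Palb2, which links it to BRCA1, stood at 40.3 and 38.6 CPM (420 and 400 counts, -0.06, interval -0.26 to 0.14). The intervals of Brca2 and Palb2 do not overlap. Brca1, a ubiquitin ligase that promotes end resection, went from 212 to 156 CPM (2204 and 1614 counts, -0.44, interval -0.53 to -0.35). Bard1, its obligate partner in that ligase, was level at 93.0 and 92.8 CPM (968 and 961 counts, -0.002). Brip1, the helicase FANCJ that binds BRCA1, was 1.67-fold lower, with 448 counts in control and 267 in Pc4-OE (43.0 and 25.8 CPM, interval of the log2 ratio -0.96 to -0.52).

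Among the 4 paralogs Rad51c, Rad51d, Xrcc2 and Xrcc3, which support the recombination filament, only Xrcc2 had an interval off 1. It had 409 and 277 counts (39.3 and 26.8 CPM, -0.55, interval -0.78 to -0.33). Rad51d, its neighbour in the BCDX2 complex, had 326 and 349 counts (31.3 and 33.7 CPM, 0.11, interval -0.11 to 0.33). Rad51c (289 and 281 counts, -0.03) and Xrcc3 (283 and 317 counts, 0.17, interval -0.06 to 0.41), which form a complex of their own, also had intervals that span 1. The translocase Rad54l, which drives strand exchange, was 1.56-fold lower, at 991 and 633 counts (95.2 and 61.2 CPM, -0.64, interval -0.78 to -0.49). Its relative Rad54b differed less, at -0.17 (interval -0.33 to -0.02).

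All 6 genes of break sensing, end resection and the BLM helicase had intervals below 1. Such an interval was found for 33.1% of measured genes and 38.0% of those with at least 100 counts. Intervals narrow with depth, and the 6 had 527 to 4844 counts over both libraries. Exo1, a nuclease that carries out long-range resection and also acts in mismatch repair, was the lowest, at 110.2 CPM (1148 counts) in control and 64.3 CPM (666 counts) in Pc4-OE. That is 1.71-fold lower (-0.78, interval -0.92 to -0.64). The MRN complex holds broken ends and starts resection. Its nuclease Mre11a had 966 and 741 counts (-0.37), the ATPase Rad50 1347 and 1161 counts (-0.21), and the scaffold Nbn 316 and 211 counts (-0.57, interval -0.83 to -0.32). Rbbp8, the MRN cofactor CtIP, had -0.37. Blm, which dissolves recombination intermediates, was at 249.8 and 217 CPM (-0.20).

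The damage kinases were lower to different degrees, and each had an interval below 1. Such an interval was found for 33.1% of measured genes and 38.0% of those with at least 100 counts. It is reached more easily at depth, and these kinases had 1797 to 3148 counts over both libraries. Chek1, the effector kinase of replication stress that embryonic cells need to survive, was 1.57-fold lower, from 109 CPM (1136 counts) to 69.5 CPM (719 counts, -0.65, interval -0.79 to -0.52). Its activator Atr, which senses single-stranded DNA, had -0.21 (interval -0.32 to -0.11). Atm, the kinase that responds to breaks, went from 175 to 128 CPM (-0.46, interval -0.56 to -0.36), and its effector Chek2 had -0.27.

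The factors that mark chromatin around breaks included the only 2 members with an interval above 1. H2afx, the histone variant H2AX that these kinases phosphorylate, was at 147 CPM (1529 counts) in control and 212 CPM (2190 counts) in Pc4-OE. It was 1.44-fold higher (0.53, interval 0.43 to 0.62), the highest of the 40. Its mRNA exists in a polyadenylated form and a form without a poly(A) tail, and these libraries hold the former. Mdc1, the adaptor that binds phosphorylated H2AX, had 3767 and 4013 counts (0.10, interval 0.04 to 0.16). Trp53bp1, which shields ends from resection, was on the other side (-0.33, interval -0.45 to -0.20).

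In end joining, the 2 Ku subunits were lower together and the ligation factors were not distinguishable from a ratio of 1. Xrcc5 (KU80) went from 206 CPM (2140 counts) to 125 CPM (1292 counts), 1.65-fold lower (-0.72, interval -0.82 to -0.62). Xrcc6 (KU70) went from 151 CPM (1571 counts) to 93.9 CPM (972 counts), 1.61-fold lower (-0.68, interval -0.80 to -0.57). Ku is the ring that threads onto broken ends and recruits the DNA-PK kinase. Prkdc, the catalytic subunit of that kinase, differed less (146 and 129 CPM, -0.18, interval -0.29 to -0.07). The ligase Lig4 (219 and 196 counts, -0.15) and its scaffold Xrcc4 (109 and 99 counts, -0.13) had intervals that span 1 (-0.44 to 0.13 and -0.54 to 0.28), which at these counts also hold a ratio as low as that of Prkdc.

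The Fanconi core complex, a ubiquitin ligase that acts at crosslinks, was lower in 7 of its 8 listed genes, 5 of them with an interval below 1. Of all measured genes, 50.7% were lower and 33.1% had such an interval (53.4% and 38.0% of those with at least 100 counts). The 1.5-fold rule called 0 of the 8. Fancl, the catalytic subunit, was the lowest at 343 and 228 counts (-0.58, interval -0.83 to -0.33), followed by the translocase Fancm at -0.53 (interval -0.69 to -0.36) and by Fancb at -0.44. Fance (-0.29) and Fanca (-0.21) were closer to 1. Fancf (73 and 54 counts, -0.43) and Fancc (119 and 103 counts, -0.20) were too thinly counted to separate from 1. Fancg was at 0.04 (interval -0.22 to 0.30). The substrates of the ligase, which clamp onto DNA as a pair, were both lower: Fancd2 had 1367 and 944 counts (131 and 91.2 CPM, -0.53) and Fanci 1453 and 1190 counts (139.5 and 115 CPM, -0.28).

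Msh6, which recognises base mismatches, was the most abundant of the 40 and the only mismatch-specific member. It stood at 1018 CPM (10605 counts) in control and 680.1 CPM (7039 counts) in Pc4-OE, a log2 ratio of -0.58 (interval -0.63 to -0.54). Per kilobase of exon it was also first in control, at 234 CPM against a median of 12.2 over the 40, and H2afx followed with 106. Exon length here joins all annotated exons of a gene, so such levels of different genes depend on the annotation. Msh6 alone made up 21.1% of the summed member CPM in control. Without it the sum was 3807 CPM in control and 3105 CPM in Pc4-OE (log2 ratio of the sums -0.29).

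**Figure D2:**
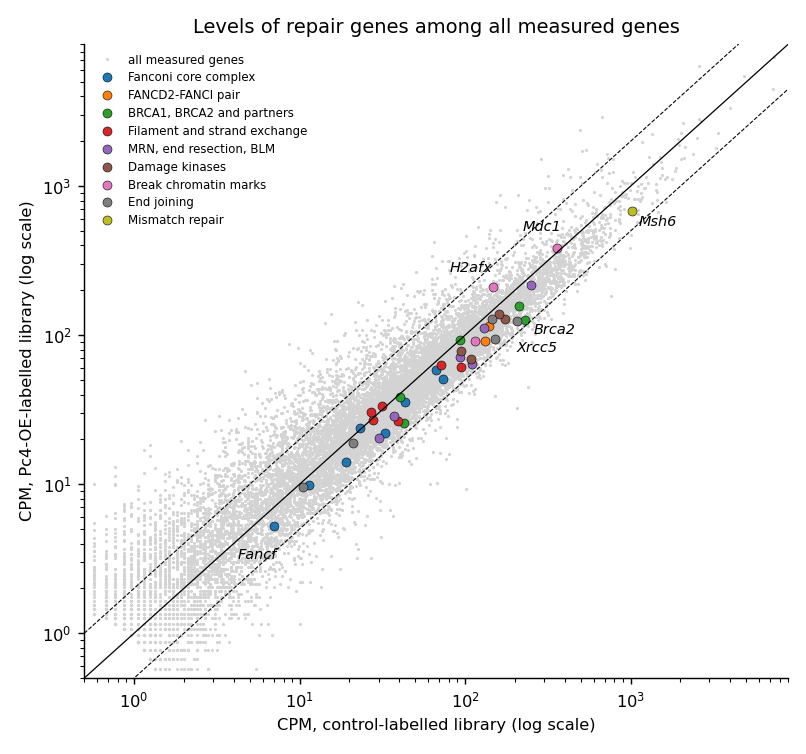
CPM in the control-labelled (x axis) and the Pc4-OE-labelled library (y axis), both on log scales, for measured genes in grey and the 40 repair genes coloured by pathway. The solid line is a ratio of 1 and the dashed lines are 2-fold. All repair genes lie between the dashed lines, Msh6 at the top right and H2afx above the solid line.

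Genes whose proteins work as pairs were compared directly. Over 9 pairs, the difference of their log2 ratios had an interval, taken from the 4 counts and not adjusted for the number of pairs, that excluded 0 in 4 and spanned 0 in 5. Brca2 was lower relative to Palb2 by -0.80 (interval -1.02 to -0.58), so that the level of Brca2 per kilobase of exon was 3.08 times that of Palb2 in control and 1.77 times in Pc4-OE. Brca1 relative to Bard1 differed by -0.44 (-0.60 to -0.28), and Fancd2 relative to Fanci by -0.25 (-0.41 to -0.08). Rad51d relative to Xrcc2 differed by 0.66 (0.35 to 0.97). The Ku pair differed by only -0.04 (-0.19 to 0.12), and Xrcc5 stayed at 2.39 and 2.33 times the per-kilobase level of Xrcc6. Such a level ratio depends on the annotated exon lengths and is not a measured ratio of transcripts. Its change between the libraries does not depend on them. For Xrcc4 and Lig4 the difference was 0.02 (-0.46 to 0.50), for Rad51c and Xrcc3 -0.20 (-0.54 to 0.13), for Mre11a and Rad50 -0.17 (-0.35 to 0.01), and for Mre11a and Nbn 0.20 (-0.09 to 0.49). These last intervals leave room for differences of the size seen for Fancd2 and Fanci.

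Many repair genes start head to head with a gene on the other strand. Within 1000 bases, the GENCODE M21 annotation gave 19 such neighbours, and 14 of them, all protein-coding, had enough counts. Both genes were below 1 in 9 pairs, both above in 1, and they lay on opposite sides in 4. The repair gene was the lower of the pair in 6 and the higher in 3 by an interval that excludes 0, and 5 intervals spanned 0. The promoter of Brca1 is printed to show how close such starts lie, since the start of Nbr1 falls inside it, 194 bases from that of Brca1.
Brca1, chr11:101551906-101552205, minus strand: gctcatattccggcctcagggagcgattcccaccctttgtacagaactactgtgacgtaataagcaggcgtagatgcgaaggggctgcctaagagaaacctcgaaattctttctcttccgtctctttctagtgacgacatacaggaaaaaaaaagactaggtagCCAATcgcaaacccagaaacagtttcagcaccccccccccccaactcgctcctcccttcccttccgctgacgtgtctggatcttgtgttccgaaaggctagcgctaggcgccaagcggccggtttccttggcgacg

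Brca1 (-0.44) and Nbr1, an autophagy receptor (2303 and 2463 counts, 0.11), lay on opposite sides of 1. The widest gap was that of Fancd2 (-0.53) and Emc3, a subunit of a membrane protein insertase (430 and 531 counts, 0.31), whose starts are 30 bases apart. Atm (-0.46) was lower than Npat, a coactivator of histone genes (1104 and 977 counts, -0.17), by -0.29 (interval -0.45 to -0.13). Rad54l, Fancb and Chek2 were likewise lower than Pomgnt1 (-0.03), Mospd2 (0.20) and Hscb (0.12). In the opposite order, Prkdc (-0.18) was above Mcm4, a subunit of the replicative helicase (5160 and 3274 counts, -0.65). Mre11a was above Ankrd49 (-0.69), and Rad51c (-0.03) above Tex14, a germ cell bridge protein (597 and 348 counts, -0.77). The pairs of Xrcc3 with Zfyve21, Fancf with Gas2, Lig4 with Abhd13, Palb2 with Dctn5 and Xrcc4 with Tmem167 differed by less than their counting intervals.

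**Figure D3:**
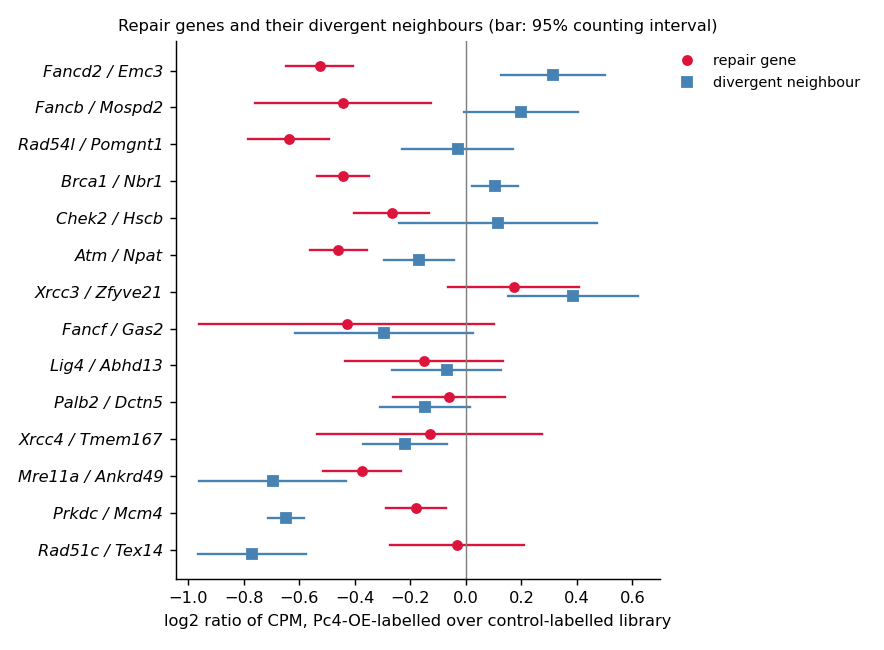
Log2 ratio (x axis) of 14 repair genes (circles) and of the genes that start next to them on the other strand (squares), with 95% counting intervals, ordered by the difference. The repair gene lies clearly left of its neighbour in the upper 6 pairs and right of it in the lower 3.

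Of 105 other genes of the same pathways, listed by function, 104 were measured, and 83 had a ratio below 1 (79.8%, against 50.7% of measured genes). At 1.5-fold, 26 were lower (25.0%, against 13.2%) and 2 higher (1.92%, against 18.8%), and the median log2 ratio was -0.33. Among 11 other genes listed under mismatch repair, 7 were 1.5-fold lower, 0 higher and 9 below 1 (median -0.66). Not all are specific to mismatch repair. Lig1 and Rfc1, among the 7, and Pold1 also serve replication. The 2 above 1 were Msh4 and Msh5, with 34 and 126 counts over both libraries and intervals that span 1. Msh3, which takes the place of MSH6 for larger loops, had 677 and 346 counts (-0.96), Hmgb1, a chromatin protein listed as a mismatch cofactor, -0.97, and Lig1, the replicative ligase, 4466 and 2802 counts (-0.66). Of 28 break signalling genes, 8 were lower and 0 higher (median -0.43), led by Rad1 (-0.94), Rad9b (-1.05) and Paxip1 (-0.80). The clamp genes did not move together. Beside Rad1 and Rad9b, Hus1 was at -0.47, while Rad9a was above 1 (333 and 465 counts, 0.49, interval 0.28 to 0.70).

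Of 34 other recombination genes, 6 were lower (17.6%, near the 13.2% of measured genes) and 0 higher (median -0.38). Hmces, which shields abasic sites in single-stranded DNA, had 2250 and 899 counts (-1.31), the Holliday junction resolvase Gen1 302 and 151 counts (-0.99), and the resection nuclease Dna2 -0.64. Of 18 crosslink genes, 4 were lower (22.2%, against 13.2% of measured genes) and 1 higher (5.56%, against 18.8%), with a median of -0.26. Usp1, which removes ubiquitin from FANCD2, was among the lower ones at 1990 and 939 counts (-1.07), with Dclre1b (-0.78) and C230052I12Rik, which RefSeq names Faap24 (-0.74). Hes1, a Notch target that is listed because its protein binds the core complex, was the 1 past 1.5-fold on the higher side (0.65). Of the 18, 9 had intervals below 1 and 3 above. Those 3 were Hes1 and, short of 1.5-fold, Rev1 (0.54, interval 0.42 to 0.67) and Ube2t (0.49, interval 0.32 to 0.65). Of 13 measured end joining genes, Nhej1, a partner of XRCC4, was lower (67 and 34 counts, -0.97) and Parp3 higher (65 and 119 counts, 0.88), 8 were below 1 and the median was -0.02, near that of all measured genes.

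Replication genes lay further from 1 than the repair genes in the same libraries. Of 31 S-phase genes, 23 were at least 1.5-fold lower (74.2%, against 13.2% of measured genes) and 0 were higher (against 18.8%). A ratio below 1 was found for 30 of them (96.8%, against 50.7%). Their median was -0.72 and their summed level 7378 CPM in control and 4559 CPM in Pc4-OE. Of 22 genes of the G2 and M phases, 2 were 1.5-fold lower (9.09%, under the 13.2% of measured genes). Of these 22, 21 were below 1 (95.5%), with a median of -0.34, close to the -0.31 of the 40 repair genes. The difference between these lists was not tested.

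**Figure D4:**
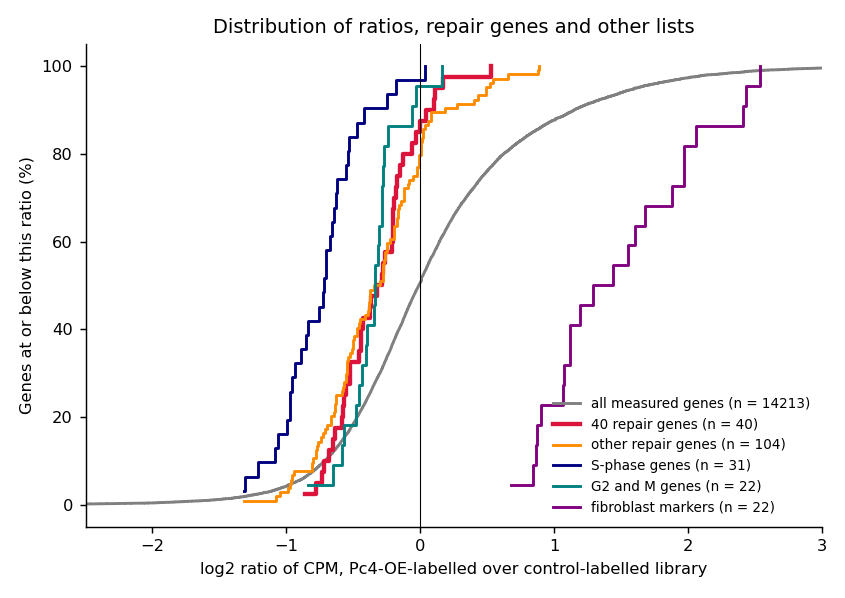
Share of genes (y axis, %) at or below each log2 ratio (x axis) for the 40 repair genes (thick red), 104 other repair genes, S-phase, G2 and M genes, fibroblast markers and 14213 measured genes. The repair curves run left of the grey curve of measured genes over most of their range, the S-phase curve further left, and the fibroblast markers to the right of 0.

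Values by chromosome and by overlap with other genes were set beside these counts. Brca2, Xrcc2 and Chek2 lie on chromosome 5, where the median was -0.32 over 753 genes whose mean level reached 5 CPM. By definition, a chromosome median has as many genes of at least that mean level below it as above. Of the 40 members, 33 lay below the median of their own chromosome. Against that of chromosome 5, Brca2 was lower by -0.54. By this measure Brca2 was not the lowest of the 40, since Exo1 (-0.83) and Xrcc5 (-0.77) lay furthest below. Xrcc2 was lower by -0.23, and Chek2 lay above the median of chromosome 5, by 0.06. Without the 4 members on chromosomes 5 and 15, which leaves out Brca2 and Xrcc6, 5 of 36 were 1.5-fold lower, near the 13.2% of measured genes. Of these 36, 31 were below 1, against 50.7% of measured genes, and the median was -0.28. Both shares of measured genes still include the genes on chromosomes 5 and 15, so the sets are not alike. Exons of 21 members overlap those of another gene, 9 of them over at least 10% of their exon length, and the strand setting of the counting is not given. Rad54l is one, sharing 1184 bases with Lrrc41 on the other strand (614 and 560 counts, -0.12). Without these 9, 6 of 31 were 1.5-fold lower (against 13.2% of measured genes), 27 of 31 below 1 (against 50.7%) and the median was -0.37.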

How the data were processed

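The authors deposited raw read counts by gene for both libraries, made with STAR 2.4.1c and featureCounts on mm10, per the submitters' processing notes. The annotation, strand setting and treatment of multi-mapping reads are not given in these sources. Columns were matched to samples by title, with 0 other value columns. Counts were scaled to CPM on TMM library sizes (edgeR 4.0.16), and ratios, with no pseudocount, cover genes that reached 20 counts summed. Intervals are exact (Clopper-Pearson) binomial intervals at 95%. At 100 counts summed, a ratio of 1 has an interval reaching 1.51, and at 1000 counts 1.13. The ratio rules were tried on simulated counts that held counting error only, as the intervals assume, so that trial says nothing about spread between cultures. Exon lengths and neighbours came from GENCODE M21, matched through the Entrez ID for 40 of 40 members, and coordinates and promoters from RefSeq (GRCm38.p6, of which mm10 is a copy). An exon length joins the annotated exons of all transcripts of a gene. Promoters were the first RefSeq start listed per gene.

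The members and lists were chosen with earlier results of these data known. All members are named. Counts are given for those past 1.5-fold and those in pairs, and for others, such as Msh6, H2afx, Mdc1 and Fancl, after their values were seen. Up to 3 lower and 3 higher genes of each other list are named by the interval bound nearest to 1, among those past 1.5-fold. Alternatives were library totals, DESeq2 1.42.0 size factors, upper-quartile factors, a pseudocount of 0.5 CPM, minimums of 1 and 100 counts, and leaving out members by chromosome or exon overlap. Some genes of these pathways are not reported here.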

Additional observations from a re-analysis of the deposited data

How the results depend on the processing

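No paired analysis was possible because there was 1 library per group. The count of members at least 1.5-fold lower was 7 with TMM, library totals or a pseudocount of 0.5 CPM, and 9 with DESeq2 size factors or upper-quartile factors, which added Msh6 and Fancl. The count at least 2-fold lower or higher was 0 under each of these. The median log2 ratio of the 40 ranged from -0.26 (library totals) to -0.32 (DESeq2), while that of all measured genes ranged from 0.03 to -0.02. Minimums of 1 and of 100 counts left all 40 members in. Leaving out members that share exon length with another gene was added after seeing the data. All 224 values of 56 named genes under the other scalings and the pseudocount stayed within their counting intervals. Each other scaling moves the log2 ratio of every gene by the same small amount, so these are not 224 separate checks. Depth limits Fancf, Xrcc4 and Fancc most, with 127 to 222 counts each over both libraries.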
